A study of Mus musculus with 28 samples.

Results

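The genes described here are 54 genes of mitosis and the spindle, read from a table of 13103 mouse genes. They were chosen by symbol from a list of 58 genes that build, drive or time the division of chromosomes. Cdc25c, Incenp, Mad2l1 and Kif20a of that list were not analysed here. The RNA came from regulatory T cells (Tregs), CD4 T cells that carry the transcription factor Foxp3 and restrain immune responses, and was collected from Foxp3-GFP mice, in which green fluorescent protein marks Foxp3-expressing cells. All mice carried B16 cells, a mouse melanoma line, implanted in the skin, and tissues were taken 7 to 10 days later. The 4 groups were GFP+ Tregs of high (OX40plus) and low (OX40minus) surface OX40, sorted from the tumors of 4 mice and from the spleens of 3 mice. OX40 is a costimulatory receptor of activated T cells. None of the 4 groups comes from tumor-free animals, and the labels give neither age nor sex. The gates are relative to each tissue, so an OX40minus cell of a tumor need not carry less receptor than an OX40plus cell of a spleen.

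A cell enters mitosis when cyclin B bound to CDK1 becomes active, and Aurora and Polo-like kinases then guide the building of a bipolar spindle. Kinetochores, assembled on the centromeres, attach chromosomes to spindle microtubules, while checkpoint proteins hold back the anaphase promoting complex until every chromosome is attached. That complex then marks securin and cyclin B for destruction, separase cuts the cohesin that holds sister chromatids together, and a contractile ring divides the cell. Most of these genes are transcribed only late in the cell cycle, so their RNA is a common measure of how much of a cell population is dividing, and T cells divide after activation.

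Estimated counts per sample ran from 2.24e+07 to 2.96e+07 over the 14 samples, and levels are given in CPM, counts scaled by library size as usual in the field. At these depths 3 counts corresponded to 0.104 to 0.13 CPM. Every sample came as 2 libraries that differed by slightly more than sampling noise (median chi-square per gene 0.496 to 0.573 over 14 pairs, with 0.455 expected from sampling alone, against 1.4 to 12.7 between mice), and the libraries of a pair were averaged and counted as 1 sample. Tnfrsf4, the gene of OX40, followed the gates, at 253 ± 40.9 CPM in spleen OX40minus (SD, n = 3), 704 ± 111 in spleen OX40plus (SD, n = 3), 1950 ± 152 in tumor OX40minus (SD, n = 4) and 3357 ± 203 in tumor OX40plus (SD, n = 4). The label Treg was checked against 9 genes of T cells and Tregs, all of which were detected in every group, and Foxp3 itself had mean levels of 32.5 to 64.5 CPM. Between gates, Il2ra was higher (0.62, adjusted p = 9.34e-05) and Cd4 lower (-0.68, adjusted p = 0.000142) in tumor OX40plus, and Ctla4 (0.83) and Tnfrsf18 (0.93) were higher in spleen OX40plus cells. Genes of other cell types were also present. The summed level of 10 macrophage and monocyte genes was 815 to 1025 CPM in spleen OX40minus, 107 to 220 CPM in spleen OX40plus, 263 to 398 CPM in tumor OX40minus and 71.9 to 80.5 CPM in tumor OX40plus, and none of the 10 was at 0 throughout a group. 5 B cell genes summed to 312.5 to 466 CPM over both spleen groups and to at most 4.21 CPM in any tumor sample. 7 melanocyte genes summed to 98.6 to 142 CPM in tumor OX40minus and 72.3 to 192 CPM in tumor OX40plus, against at most 22.4 CPM in spleen. 6 CD8 T and NK cell genes summed to 67.8 to 114 CPM in tumor OX40minus and 41.9 to 57.5 CPM in tumor OX40plus, where 5 of the 6 were lower and Eomes was at 0 in every sample. Sums were 35.2 to 166 CPM for 4 erythroid genes in the tumor, with no gene passing between gates, and at most 27.7 CPM for 6 neutrophil genes in any sample, of which 1 was higher and 2 lower in tumor OX40plus.

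Differences were tested with limma on log2 CPM, with Benjamini-Hochberg adjustment over all 12509 genes tested, and a gene passed at an adjusted p under 0.05. All 54 mitosis and spindle genes passed the filter on low values. In the tumor, 52 of the 54 genes were higher in OX40plus than in OX40minus Tregs and none was lower, where 18.6% of all genes tested passed as higher and 20% as lower. The median log2 difference of the 54 genes was 1.23, a 2.35-fold difference, against a median of -0.07 over all genes. In the spleen, 43 of the 54 genes were higher in OX40plus Tregs and none was lower, where 4.39% of all genes passed as higher and 3.6% as lower. The median there was 0.79, a 1.73-fold difference, against 0.01 over all genes. Every OX40plus sample was above every OX40minus sample for 52 of the 54 genes in the tumor, against 16.7% of all genes, and for 45 in the spleen, against 17.5%. RNA from sorted bulk samples cannot tell apart a larger share of dividing cells and more of this RNA in each dividing cell.

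The summed level of the 54 genes set the tumor OX40plus and the spleen OX40minus samples apart from the rest. In spleen OX40minus the sum was 1974, 2275 and 1832 CPM in mice 1 to 3. In spleen OX40plus it was 3058, 4050 and 2627 CPM. The tumor OX40minus samples of mice 1 to 4 held 4087, 4826, 3965 and 3849 CPM. The tumor OX40plus samples held 8581, 9335, 8392 and 9319 CPM. Each tumor OX40plus sample was above every sample of the other groups, the OX40minus samples of the spleen were below all others, and the tumor OX40minus and spleen OX40plus samples overlapped. For 45 of the 54 genes the mean log2 CPM fell in the order tumor OX40plus, tumor OX40minus, spleen OX40plus, spleen OX40minus. Cenpe, Kif15, Espl1, Top2a and Foxm1 differed from this order only in that spleen OX40plus stood above tumor OX40minus, and Cdc25b, Kif14, Pttg1 and Mki67 each had an order of their own.

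**Figure D1:**
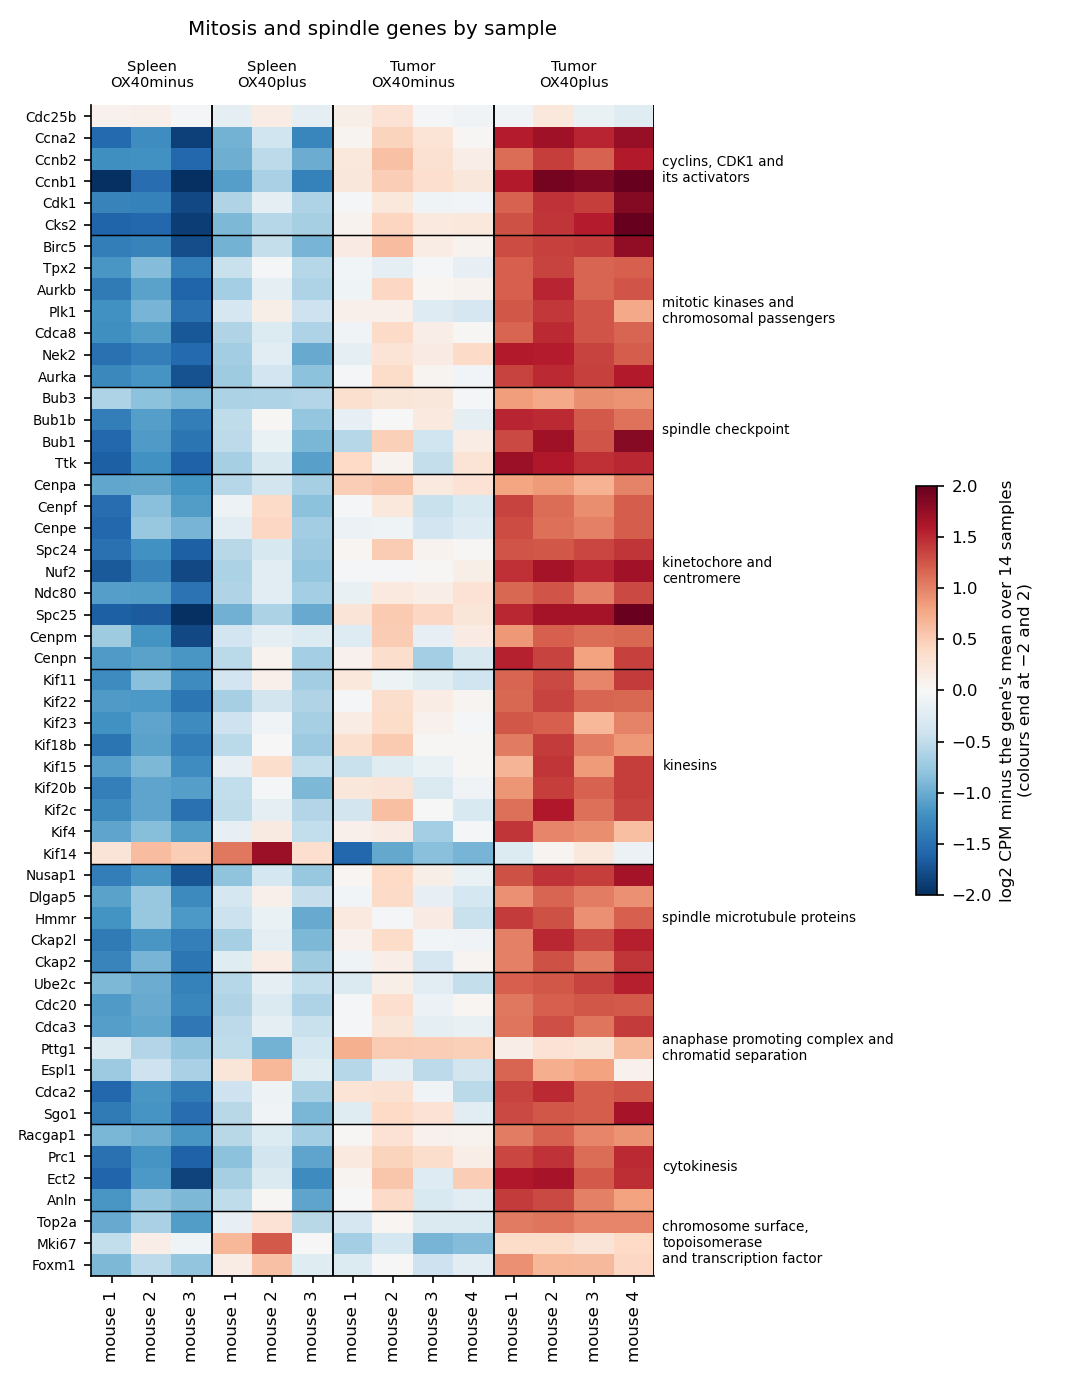
Level of the 54 mitosis and spindle genes (rows, by role) in the 14 samples (columns, by group), as log2 CPM minus the gene's mean over all samples. The median over the genes lies between 1.14 and 1.35 in the 4 tumor OX40plus samples and between -1.39 and -1.06 in the 3 spleen OX40minus samples, while Cdc25b, Kif14, Pttg1 and Mki67 break the pattern.

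The direction was the same in most animals. Set within each mouse, 52 of the 54 genes (96.3%) were higher in the OX40plus than in the OX40minus sample of all 4 tumor mice, against 22.3% of all genes tested. In the spleen, 49 of the 54 (90.7%) were higher in OX40plus in all 3 mice, against 23.9% of all genes. The median within-mouse log2 difference of the 54 genes was 1.21, 1.05, 1.25 and 1.35 in tumor mice 1 to 4, and 0.75, 0.91 and 0.61 in spleen mice 1 to 3. Mouse 2 had the highest level in its group for 45 of 54 genes in spleen OX40minus, 52 in spleen OX40plus, 42 in tumor OX40minus and 16 in tumor OX40plus. The labels do not say whether a mouse number names the same animal in tumor and spleen.

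The spleen count rested on single samples more than the tumor count did. With any 1 of the 14 samples left out, 52 genes passed in the tumor. The share of all genes that passed is not given here for the fits of this paragraph. Without the spleen OX40plus sample of mouse 2, 24 of the 54 genes passed as higher in the spleen, and without the spleen OX40minus sample of mouse 3, 25 did, while the median log2 differences without each sample lay between 0.63 and 0.93. A model with a term for each mouse, which pairs the gates of an animal, gave 44 genes in the spleen. Under it Bub1, Ect2 and Mki67 passed in addition (adjusted p = 0.013, 0.0117 and 0.032) and Espl1 and Kif20b did not (0.0524 and 0.0575). Of the 43 genes, 24 passed in every fit without 1 sample and 19 missed the threshold in at least 1 of them. Birc5, Dlgap5, Ube2c, Racgap1, Prc1 and Ndc80 missed it without either of those samples, with adjusted p between 0.0532 and 0.0924. Kif11, Cenpf and Sgo1 also missed it without the spleen OX40minus sample of mouse 1, and Cenpf and Sgo1 without the spleen OX40plus sample of mouse 1 (highest adjusted p 0.0948, 0.127 and 0.147).

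**Figure D2:**
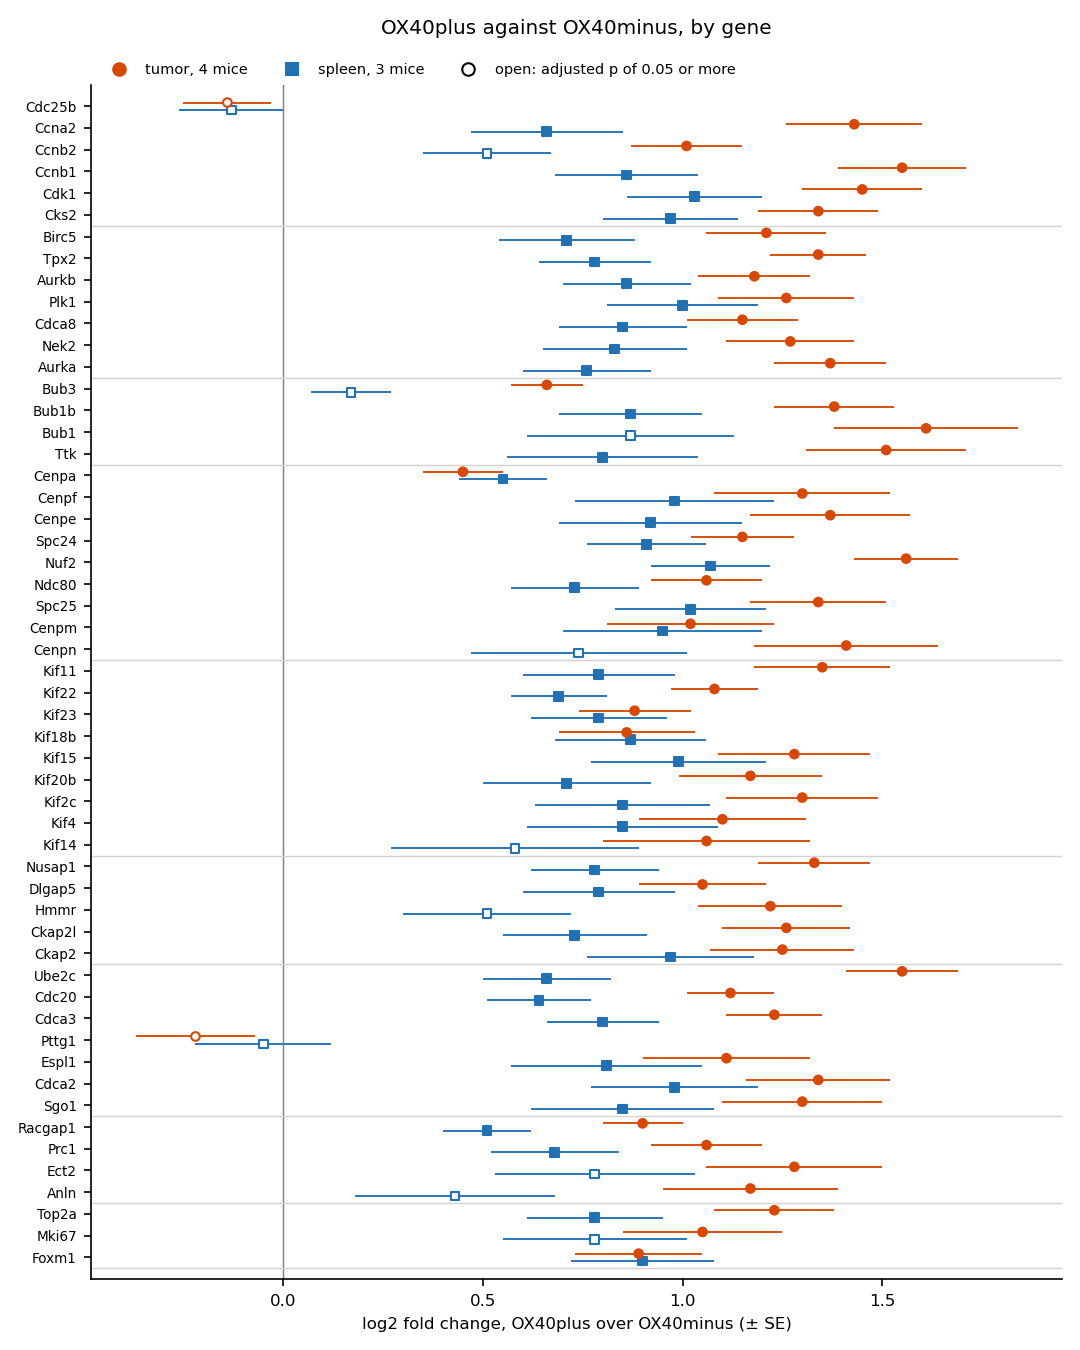
log2 fold change of OX40plus over OX40minus Tregs for each gene, in tumor (circles, 4 mice) and spleen (squares, 3 mice), with standard errors from limma and filled symbols at an adjusted p under 0.05. In the tumor, 52 of 54 symbols are filled and above 0, and Cdc25b and Pttg1 lie just below 0 in both tissues.

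Among the cyclins, CDK1 and its activators, 5 of 6 genes were higher in OX40plus Tregs of the tumor and 4 of 6 in the spleen. Ccnb1, at chr13:100778739-100786486 in the RefSeq annotation of GRCm38.p6, encodes cyclin B1, whose binding activates CDK1. Ccnb1 had 22.8, 32.7 and 22.0 CPM in the spleen OX40minus samples of mice 1 to 3 and 44.1, 60.3 and 36.9 CPM in the OX40plus samples. In the tumor it had 109.7, 132, 118 and 109.9 CPM in OX40minus and 283, 355, 341 and 411 CPM in OX40plus samples of mice 1 to 4. No groups overlapped. The log2 difference was 1.55 ± 0.16 (SE) in the tumor (adjusted p = 2.26e-06) and 0.86 ± 0.18 in the spleen (adjusted p = 0.00663). Ccna2, the gene of cyclin A2, which acts from S phase into early mitosis, had 135, 178, 158 and 133 CPM in tumor OX40minus and 386, 421, 377 and 435 CPM in tumor OX40plus. Those groups did not overlap, and the difference was 1.43 ± 0.17 (adjusted p = 8.22e-06). In the spleen Ccna2 had 44.3, 55.1 and 35.9 CPM in OX40minus and 67.3, 98.5 and 52.4 CPM in OX40plus, where the lowest OX40plus sample was below the highest OX40minus sample. Its spleen difference of 0.66 ± 0.19 passed narrowly (adjusted p = 0.0451), and did not in 10 of the 14 fits that left out 1 sample (adjusted p up to 0.225, without the spleen OX40minus sample of mouse 3). Cdk1, the kinase itself, rose by 1.45 ± 0.15 in the tumor and 1.03 ± 0.17 in the spleen, and Cks2, a small protein that binds CDK1, by 1.34 ± 0.15 and 0.97 ± 0.17. Ccnb2, the gene of cyclin B2, rose by 1.01 ± 0.14 in the tumor, and its spleen difference of 0.51 ± 0.16 did not pass (adjusted p = 0.0671).

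Cdc25b, a phosphatase that removes the inhibitory phosphates from cyclin-dependent kinases, showed no such difference. It had 209, 213 and 192 CPM in spleen OX40minus, 174, 218 and 174 CPM in spleen OX40plus, 214, 243, 194 and 188.5 CPM in tumor OX40minus and 188.2, 229, 181 and 167 CPM in tumor OX40plus. All 4 groups overlapped. The log2 difference was -0.14 ± 0.11 in the tumor (adjusted p = 0.354) and -0.13 ± 0.13 in the spleen (adjusted p = 0.785).

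All 7 mitotic kinases and chromosomal passenger genes were higher in OX40plus Tregs in both tissues. Tumor differences ran from 1.15 to 1.37 on the log2 scale and spleen differences from 0.71 to 1.00. Tpx2 encodes the protein that activates Aurora A at spindle microtubules, and had 79.4, 72.2, 81.4 and 74.1 CPM in tumor OX40minus and 189, 212, 186 and 189.7 CPM in tumor OX40plus samples. The gates were far apart in every mouse, with a difference of 1.34 ± 0.12 (adjusted p = 8.08e-07). Its spleen levels were 36.8, 45.2 and 31.9 CPM in OX40minus and 60.9, 80.3 and 55.6 CPM in OX40plus, again without overlap (0.78 ± 0.14, adjusted p = 0.00177). Birc5, which encodes survivin, a subunit of the chromosomal passenger complex, had 116, 159.5, 115 and 109 CPM in tumor OX40minus and 255.5, 267, 274 and 352 CPM in tumor OX40plus (1.21 ± 0.15, adjusted p = 1.34e-05). The Aurora kinases Aurka and Aurkb rose by 1.37 ± 0.14 and 1.18 ± 0.14 in the tumor, Plk1 by 1.26 ± 0.17, the centrosome kinase Nek2 by 1.27 ± 0.16, and Cdca8, the gene of the passenger subunit borealin, by 1.15 ± 0.14.

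The 4 spindle checkpoint genes were all higher in OX40plus Tregs of the tumor, and 2 of the 4 in the spleen. Bub1, a checkpoint kinase of the kinetochore, had the largest tumor difference of the 54 genes. It had 17.4, 36.1, 19.7 and 28.8 CPM in tumor OX40minus and 64.6, 83.7, 62.4 and 91.7 CPM in tumor OX40plus, without overlap (1.61 ± 0.23, adjusted p = 5.01e-05). Bub1b, the gene of BubR1, a part of the complex that restrains the anaphase promoting complex, rose by 1.38 ± 0.15 in the tumor and 0.87 ± 0.18 in the spleen. Its tumor levels were 67.7, 75.2, 86.6 and 66.3 CPM in OX40minus and 217, 214, 178 and 160.1 CPM in OX40plus. Ttk, which encodes the kinase MPS1 that starts checkpoint signalling, rose by 1.51 ± 0.20 in the tumor. Its spleen difference of 0.80 ± 0.24 passed narrowly (adjusted p = 0.0474), and did not in 10 of the 14 fits that left out 1 sample (adjusted p up to 0.217, without the spleen OX40plus sample of mouse 2). Bub3, the partner that brings Bub1 and BubR1 to kinetochores, differed least. Bub3 had 237, 224.5, 222.5 and 187.5 CPM in tumor OX40minus and 337, 322, 361 and 352 CPM in tumor OX40plus (0.66 ± 0.09, adjusted p = 2.32e-05). In the spleen Bub3 had 124, 107 and 100.5 CPM in OX40minus and 122, 124 and 127 CPM in OX40plus, overlapping groups whose difference of 0.17 ± 0.10 did not pass (adjusted p = 0.453).

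All 9 kinetochore and centromere genes were higher in tumor OX40plus Tregs, and 8 of 9 in the spleen. Nuf2, a subunit of the NDC80 complex that grips microtubules, had the smallest adjusted p of the 54 genes in the tumor. Its levels were 40.7, 40.7, 41.8 and 45.0 CPM in OX40minus and 114, 132, 118 and 132 CPM in OX40plus (1.56 ± 0.13, adjusted p = 3.75e-07), and in the spleen 12.9, 16.4 and 11.8 against 26.8, 35.6 and 24.2 CPM (1.07 ± 0.15, adjusted p = 0.000262). Neither tissue had overlapping samples. The other subunits of the complex, Ndc80, Spc24 and Spc25, rose by 1.06 ± 0.14, 1.15 ± 0.13 and 1.34 ± 0.17 in the tumor and by 0.73 ± 0.16, 0.91 ± 0.15 and 1.02 ± 0.19 in the spleen. Cenpf, a large kinetochore protein that appears in G2, had 49.4, 58.9, 37.2 and 41.4 CPM in tumor OX40minus and 130.4, 111, 96.9 and 118 CPM in tumor OX40plus (1.30 ± 0.22, adjusted p = 0.000224). Cenpa encodes the histone H3 variant that marks centromeres, and it had the smallest difference of the genes that passed in the tumor. It had 314, 328, 257 and 274 CPM in tumor OX40minus and 387, 404, 365 and 445 CPM in tumor OX40plus (0.45 ± 0.10, adjusted p = 0.00147), and its spleen difference was 0.55 ± 0.11 (adjusted p = 0.00431). The groups did not overlap, and the difference between the tissues, -0.10 ± 0.15, did not pass (adjusted p = 0.717).

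All 9 kinesins, a family of motor proteins that act on microtubules, were higher in tumor OX40plus Tregs, and 8 of 9 in the spleen. Kif11, the motor Eg5 that pushes spindle poles apart, had 116, 93.9, 85.0 and 75.7 CPM in tumor OX40minus and 225, 251, 197.5 and 265 CPM in tumor OX40plus, without overlap (1.35 ± 0.17, adjusted p = 1.45e-05). Kif22, a motor that pushes chromosome arms away from the poles, had 89.9, 116, 101 and 94.8 CPM in tumor OX40minus and 203, 234, 205 and 202 CPM in tumor OX40plus (1.08 ± 0.11, adjusted p = 1.61e-06). Kif23, a subunit of centralspindlin, and Kif18b, which limits astral microtubules, had the smallest tumor differences of the kinesins, 0.88 ± 0.14 and 0.86 ± 0.17. Kif18b differed by 0.87 ± 0.19 in the spleen, and the test between tissues gave -0.02 ± 0.25 (adjusted p = 0.98). Kif14, a motor of the dividing cell's midzone, had the lowest level per kilobase of the 54 genes in the tumor, with 3.32, 4.46, 5.08 and 4.76 CPM in OX40minus and 7.54, 9.42, 10.6 and 8.37 CPM in OX40plus. These groups did not overlap (1.06 ± 0.26, adjusted p = 0.0048). Its spleen samples stood at 10.8, 13.96 and 12.7 CPM in OX40minus and 18.9, 29.7 and 11.5 CPM in OX40plus, which overlapped (0.58 ± 0.31, adjusted p = 0.37).

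All 5 genes of spindle microtubule proteins were higher in tumor OX40plus Tregs, by 1.05 to 1.33 on the log2 scale, and 4 of 5 in the spleen. Nusap1, which bundles microtubules near chromosomes, had 76.4, 98.0, 81.0 and 67.9 CPM in tumor OX40minus and 179.9, 202, 194 and 235 CPM in tumor OX40plus (1.33 ± 0.14, adjusted p = 3.85e-06). Dlgap5, a spindle protein needed for chromosome congression, had 51.7, 70.2, 48.1 and 42.3 CPM against 101, 120.5, 109 and 101 CPM (1.05 ± 0.16, adjusted p = 0.000102). Hmmr rose by 1.22 ± 0.18 in the tumor, and its spleen difference of 0.51 ± 0.21 did not pass (adjusted p = 0.2).

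Of the 7 genes of the anaphase promoting complex and chromatid separation, 6 were higher in OX40plus Tregs in each tissue. Ube2c, at chr2:164769929-164772902, encodes the ubiquitin-conjugating enzyme that works with the complex. It had 54.5, 51.1 and 39.7 CPM in spleen OX40minus and 67.9, 88.9 and 72.1 CPM in spleen OX40plus. In the tumor it had 83.2, 109.6, 86.8 and 73.1 CPM in OX40minus and 232, 239.6, 259 and 298 CPM in OX40plus. The tumor OX40plus samples stood far above the rest, while the tumor OX40minus and spleen OX40plus samples overlapped. The difference was 1.55 ± 0.14 in the tumor (adjusted p = 6.07e-07) and 0.66 ± 0.16 in the spleen (adjusted p = 0.0139). Cdc20, the activator that brings substrates to the complex in mitosis, had 83.4, 108, 79.1 and 87.9 CPM in tumor OX40minus and 178, 196, 202 and 199 CPM in tumor OX40plus (1.12 ± 0.11, adjusted p = 1.55e-06). Espl1, the gene of separase, had 31.8, 41.0, 32.7 and 36.6 CPM in tumor OX40minus and 106, 78.2, 81.8 and 49.97 CPM in tumor OX40plus (1.11 ± 0.21, adjusted p = 0.000555). Mouse 4 gave the lowest OX40plus value, and the groups did not overlap. Its spleen difference of 0.81 ± 0.24 passed narrowly (adjusted p = 0.0477), and did not in 11 of the 14 fits that left out 1 sample (adjusted p up to 0.227). Sgo1, the gene of shugoshin, which protects centromeric cohesion, rose by 1.30 ± 0.20 in the tumor and 0.85 ± 0.23 in the spleen.

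Pttg1, at chr11:43420244-43427463, encodes securin, the inhibitor of separase that is destroyed at anaphase, and did not follow its partner. It had 45.6, 37.0 and 32.0 CPM in spleen OX40minus, 39.0, 28.8 and 43.5 CPM in spleen OX40plus, 91.3, 79.6, 78.6 and 77.1 CPM in tumor OX40minus and 60.9, 67.9, 66.2 and 86.5 CPM in tumor OX40plus. The gates overlapped in both tissues, and every tumor sample was above every spleen sample. The OX40 difference was -0.22 ± 0.15 in the tumor (adjusted p = 0.245) and -0.05 ± 0.17 in the spleen (adjusted p = 0.974). When each sample was centred on genes of like transcript length, the tumor value was -0.47 ± 0.10 and passed as lower (adjusted p = 0.00118).

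All 4 cytokinesis genes were higher in tumor OX40plus Tregs and 2 of 4 in the spleen. Racgap1, a GTPase-activating protein of centralspindlin, had 146, 175.5, 154 and 151 CPM in tumor OX40minus and 292.5, 327, 285 and 269 CPM in tumor OX40plus (0.90 ± 0.10, adjusted p = 4.27e-06). Prc1, which crosslinks antiparallel microtubules at the midzone, had 125, 147, 138 and 119.6 CPM against 273, 295, 237 and 305 CPM (1.06 ± 0.14, adjusted p = 2.18e-05). In the spleen these genes rose by 0.51 ± 0.11 and 0.68 ± 0.16. Anln, the ring scaffold anillin, and Ect2, the exchange factor that activates RhoA, rose by 1.17 ± 0.22 and 1.28 ± 0.22 in the tumor, and their spleen differences of 0.43 ± 0.25 and 0.78 ± 0.25 did not pass (adjusted p = 0.456 and 0.0743).

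The remaining 3 genes were Top2a, which encodes the topoisomerase that untangles sister chromatids, Mki67, which encodes Ki-67, the protein coat of mitotic chromosomes, and Foxm1, a transcription factor of many G2 and mitosis genes. All 3 were higher in tumor OX40plus Tregs. Top2a, at chr11:98992947-99024199, had 141, 179 and 130.5 CPM in spleen OX40minus, 252, 346.5 and 192 CPM in spleen OX40plus, 224, 291, 232 and 231.5 CPM in tumor OX40minus and 582, 589.7, 553.5 and 553 CPM in tumor OX40plus. The tumor OX40plus samples were close together and far above the others (1.23 ± 0.15, adjusted p = 1.05e-05), and the spleen gates did not overlap (0.78 ± 0.17, adjusted p = 0.0076). Foxm1 rose by 0.89 ± 0.16 in the tumor and 0.90 ± 0.18 in the spleen. Mki67, at chr7:135689784-135716450, had 169, 259.7 and 223 CPM in spleen OX40minus, 378, 559 and 236 CPM in spleen OX40plus, 148.5, 187.3, 125 and 130.2 CPM in tumor OX40minus and 306, 307, 285.5 and 312 CPM in tumor OX40plus. The tumor gates did not overlap (1.05 ± 0.20, adjusted p = 0.000725). The spleen gates did, with nearly the same level in both gates of mouse 3, and the spleen difference of 0.78 ± 0.23 missed the threshold (adjusted p = 0.0526) and passed in the model with a term for each mouse (adjusted p = 0.032).

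**Figure D3:**
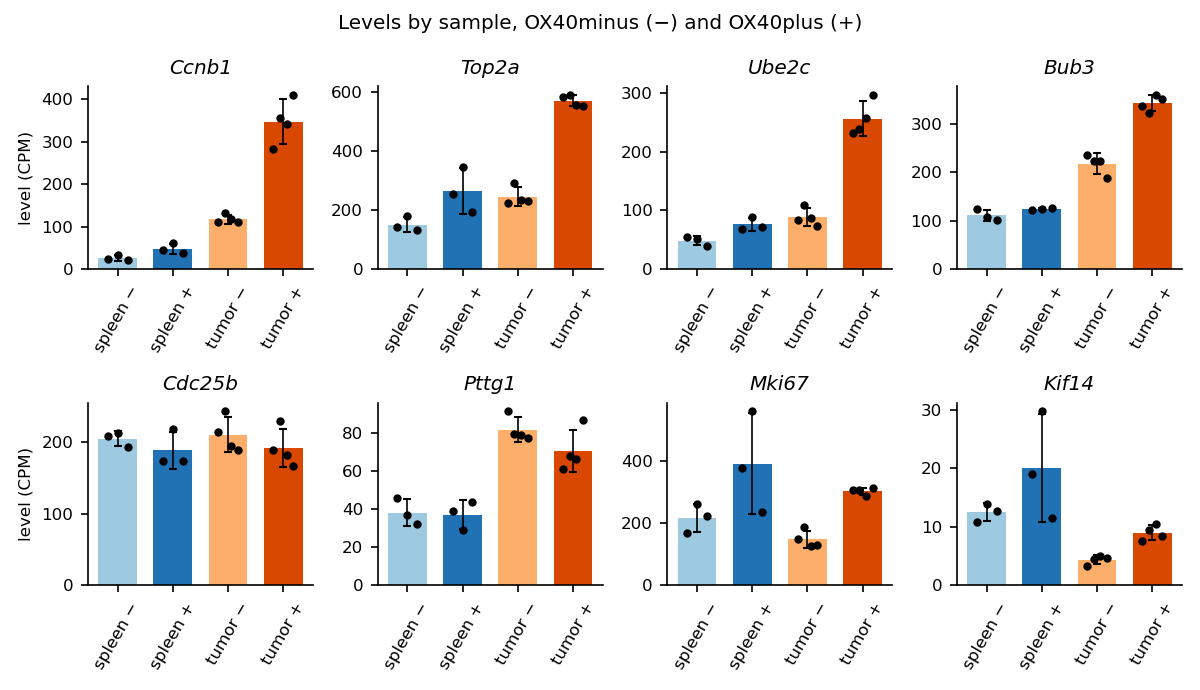
Level in CPM of 8 genes in the 4 groups, with points for mice, bars for means and error bars for SD (n = 3 in spleen, n = 4 in tumor). Ccnb1, Top2a, Ube2c and Bub3 are highest in every tumor OX40plus sample, the groups overlap for Cdc25b, Pttg1 differs by tissue, and Mki67 and Kif14 have their highest sample in spleen OX40plus mouse 2.

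Whether the OX40 difference was larger in the tumor than in the spleen was tested as an interaction. Of the 54 genes, 49 had a larger log2 difference in the tumor, against 5703 of all 12509 genes tested, with a median interaction of 0.44 against -0.06. Only Ube2c (0.89 ± 0.21, adjusted p = 0.0123) and Bub3 (0.49 ± 0.13, adjusted p = 0.0257) passed, both larger in the tumor. Of all genes 4.53% passed in that direction and 6.38% in the other, so the 2 genes are near the share of their direction. With a term for each mouse within a tissue, 4 genes passed, Ube2c, Ccna2, Ccnb1 and Tpx2 (adjusted p = 0.0164 for Ccna2, 0.0279 for Ccnb1 and 0.0399 for Tpx2), and Bub3 did not (adjusted p = 0.0725). For the fits with other settings, the share of all genes that passed is not given here. The count was 10 without the spleen OX40plus sample of mouse 2, 5 without the spleen OX40minus sample of mouse 3 and 4 without the tumor OX40minus sample of mouse 2. It was 1 without the spleen OX40minus sample of mouse 1 or of mouse 2, the spleen OX40plus sample of mouse 1 or the tumor OX40plus sample of mouse 3. Ube2c passed under each of these settings, and Bub3 missed the threshold without each of the last 4 samples and without the spleen OX40plus sample of mouse 2 (adjusted p = 0.052 to 0.0754).

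Between tissues, the same genes were mostly higher in the tumor. In OX40plus Tregs, 50 of 54 were higher in the tumor than in the spleen and 1 was lower, where 30.3% of all genes passed as higher and 34.2% as lower. In OX40minus Tregs, 50 were higher and 2 lower, where 29.7% and 29.3% of all genes did. The median log2 difference was 1.68 in OX40plus and 1.28 in OX40minus cells, against -0.13 and -0.03 over all genes. The largest were those of Ccnb1 (2.90 ± 0.17 and 2.20 ± 0.17) and Spc25 (2.57 ± 0.18 and 2.25 ± 0.18), followed by Ccna2 in OX40plus cells (2.52 ± 0.18) and Cks2 in OX40minus cells (1.91 ± 0.16). Beside these differences, the summed level of the 9 T cell and Treg genes was 4123 to 5646 CPM over the spleen samples and 9671 to 11680 CPM over the tumor samples, and B cell genes were found in the spleen samples as given above. Erythroid genes summed to 4.64 to 16.0 CPM in spleen and 35.2 to 166 CPM in tumor samples, melanocyte genes to 12.7 to 22.4 against 72.3 to 192 CPM, and macrophage and monocyte genes in OX40minus cells to 815 to 1025 against 263 to 398 CPM. The part of these in the tissue differences was not tested.

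Kif14, Mki67 and Cdc25b stood at the low end in both gates. Kif14 was lower in the tumor by 1.06 ± 0.29 in OX40plus (log2 difference -1.06, adjusted p = 0.00391) and by 1.54 ± 0.29 in OX40minus cells (-1.54, adjusted p = 0.000224). Mki67 differed by -0.28 ± 0.22 in OX40plus cells, which did not pass (adjusted p = 0.27), and by -0.55 ± 0.22 in OX40minus cells, which passed as lower (adjusted p = 0.0398) but not without the spleen OX40minus sample of mouse 2 or 3 or the tumor OX40minus sample of mouse 1, 3 or 4 (adjusted p = 0.0617 to 0.172). Cdc25b differed by 0.02 ± 0.12 and 0.03 ± 0.12. Kif14, Mki67 and Espl1 also have long transcripts, and the tissue differences of the 54 genes went with transcript length, with a Spearman correlation across the genes of -0.43 in OX40plus and -0.51 in OX40minus cells, over 54 genes that share the same samples. Across all 12121 tested genes with a length the correlations were -0.25 and -0.22, and with the genes split by length into 5 equal groups the median tissue difference in OX40plus cells went from 0.38 in the shortest group to -0.71 in the longest, of 4358 bases or more. Of the 54 genes, 11 were in that longest group, with a median of 1.18, against 1.75 for the other 43. For the OX40 differences the correlations were 0.03 in the tumor and 0.05 in the spleen across the 54 genes, and -0.15 and -0.11 across all genes, where the medians went from 0.12 in the shortest to -0.21 in the longest group in the tumor. The labels give no RNA quality values, and their part was not tested.

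**Figure D4:**
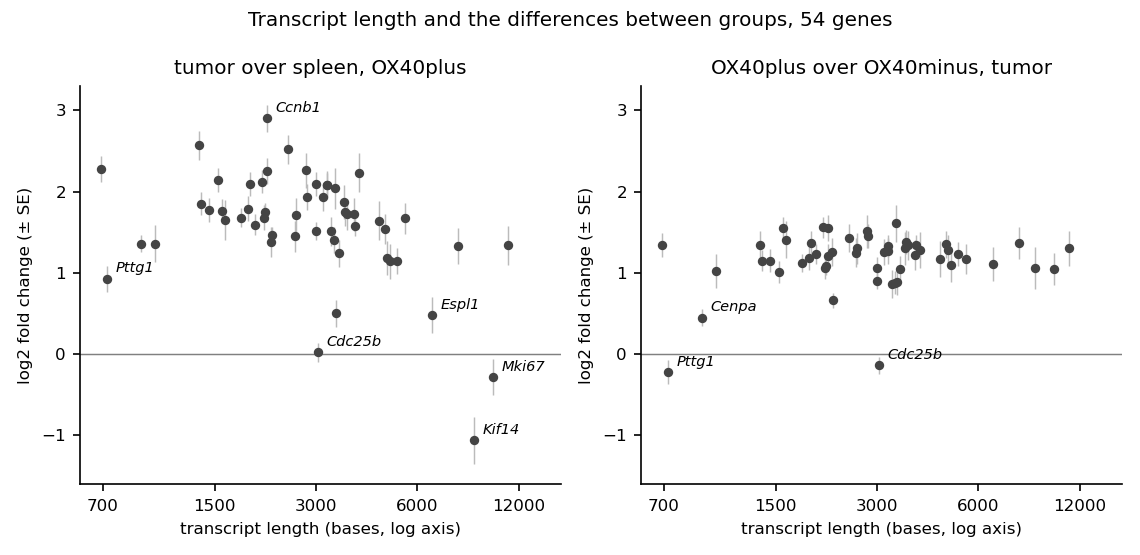
log2 fold change (± SE) of the 54 genes against the median length of their protein-coding transcripts on a log axis, for tumor over spleen in OX40plus Tregs (left) and OX40plus over OX40minus in the tumor (right). On the left Kif14 and Mki67, both long, lie lowest, at -1.06 and -0.28. The 11 genes of 4358 bases or more have a median of 1.18 there, against 1.75 for the other 43. On the right these medians are 1.17 and 1.25.

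The tissue values of the long transcripts changed when each sample was centred on the median of genes of like length. Mki67 was then higher in the tumor in both gates, by 0.77 ± 0.15 in OX40plus (adjusted p = 0.000329) and by 0.42 ± 0.15 in OX40minus cells (adjusted p = 0.0266). Kif14 was then at 0.00 ± 0.24 in OX40plus (adjusted p = 0.989) and -0.57 ± 0.24 in OX40minus cells (adjusted p = 0.0535). Espl1, which had not passed in either gate before (0.48 ± 0.22 and 0.18 ± 0.22), was higher in the tumor by 1.15 ± 0.18 and 0.83 ± 0.18. With this centring 52 of 54 genes were higher in the tumor in each gate and none was lower. In OX40plus cells of tumor and spleen 52 and 43 genes were higher, and the interaction passed for 11 genes. The shares of all genes given above belong to the fit without centring, and those of the centred fit are not given here.

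Tumor OX40minus and spleen OX40plus Tregs, which differ in both tissue and gate, had the smallest median difference. Here 31 of the 54 genes were higher in tumor OX40minus cells and 3, Kif14, Mki67 and Espl1, were lower, where 28.7% of all genes passed as higher and 29.1% as lower. The median log2 difference was 0.51. Ccnb1 (1.35 ± 0.17), Spc25 (1.23 ± 0.18) and Pttg1 (1.15 ± 0.16) had the largest differences toward tumor OX40minus cells, and Kif14 (-2.12 ± 0.29), Mki67 (-1.33 ± 0.22) and Espl1 (-0.63 ± 0.22) those toward spleen OX40plus cells. Espl1 did not pass without the spleen OX40plus sample of mouse 1 or 2 or the tumor OX40minus sample of mouse 1 or 3 (adjusted p = 0.0533 to 0.156). Of the 11 genes in the longest group 1 passed as higher, and of the other 43 genes 30 did. Centred by length, 43 genes were higher and 2 lower, Mki67 and Kif14 remained lower (-0.44 ± 0.15 and -1.23 ± 0.24), Espl1 was at -0.02 ± 0.18 and Top2a, at -0.07 ± 0.16 before, was at 0.56 ± 0.13 (adjusted p = 0.00146). The shares of all genes given for this comparison belong to the fit without centring. This comparison shares its samples with those above.

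Per kilobase of transcript, the 54 genes covered a wide range within a sample. In tumor OX40plus Tregs the highest mean levels were those of Cenpa, at 442 CPM per kilobase, Cks2 at 224, Ccnb2 at 169, Ccna2 and Ube2c at 163 each and Ccnb1 at 162. The lowest were those of Kif14 at 1.01, Cenpf and Anln at 10.2 each and Espl1 at 11.9 CPM per kilobase. In spleen OX40minus Tregs Cenpa again led, at 117 CPM per kilobase, and Kif14, at 1.41, was again lowest. Cdc25b stood at 67.2 CPM per kilobase there and at 62.8 in tumor OX40plus cells, close to each other in level while most of the other genes were higher in the tumor.

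Other genes of cell division were read from lists outside the 54, beside the shares of all genes given above (18.6% higher and 20% lower in tumor OX40plus, 4.39% and 3.6% in the spleen). Of 50 further mitosis genes, 47 were higher in OX40plus Tregs of the tumor and 26 in the spleen, and none was lower, with medians of 1.11 and 0.70. Among them Tacc3, a spindle protein, rose by 1.16, Fbxo5, the inhibitor EMI1 of the anaphase promoting complex, by 1.14, and Pmf1, a kinetochore subunit, by 1.05 in the tumor. Of 24 DNA replication genes, 23 were higher in the tumor and 19 in the spleen, with medians of 1.16 and 0.82. The helicase subunits Mcm6 and Mcm5 rose by 0.97 and 1.22, and Rrm1, a subunit of ribonucleotide reductase, by 1.11. All 8 condensin genes, which compact mitotic chromosomes, were higher in the tumor (median 0.98) and 3 in the spleen, with Ncaph at 1.12, Smc2 at 1.24 and Ncapg at 1.13 in the tumor.

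Lists of other parts of the same complexes had smaller medians. Of 13 further genes of the anaphase promoting complex, mostly core subunits, 8 were higher in tumor OX40plus Tregs and none in the spleen. Their medians were 0.36 and 0.03, against 1.55 for Ube2c and 1.12 for Cdc20 in the tumor. Anapc5 rose by 0.46, Anapc15 by 1.07 and Fzr1, an activator like Cdc20 and not a core subunit, by 0.53. Of 13 cohesin genes, 6 were higher and 3 lower in the tumor and 1 was higher in the spleen, with medians of 0.18 and 0.02, and the 3 lower and the 1 in the spleen are near the shares of all genes. The highest was Cdca5, the gene of sororin, at 1.30, while the core subunits Smc1a and Rad21 rose by 0.51 and 0.48. Of the 10 genes of the DREAM and MYBL2 complexes, which repress or activate late cell cycle genes, 7 were higher in the tumor (median 0.54) and 2 in the spleen, among them Mybl2 at 1.25 and Tfdp1 at 1.13, with E2f4 at 0.55 in the tumor. Of 5 E2F genes, 4 were higher in the tumor and 2 in the spleen, with E2f8 at 1.01 and E2f1 at 0.95 in the tumor and E2f3 at a mean of 12.8 CPM in OX40minus and 27.3 CPM in OX40plus.

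Of 17 genes that act as brakes on the cell cycle, 4 were higher and 9 lower in tumor OX40plus Tregs. Of all genes 18.6% passed as higher and 20% as lower there, so the 4 higher are near that share. In the spleen 2 were higher and 2 lower, where 4.39% and 3.6% of all genes were. The tumor differences of the list had a median of -0.34 and ran from -1.15 to 1.86. Of the 4 higher genes, 2 rose by 1 or more on the log2 scale. Btg1, an antiproliferative factor of resting lymphocytes, fell by 1.15 in the tumor (adjusted p = 1.22e-07) and by 0.46 in the spleen (adjusted p = 0.0068), from a mean of 1126 to 506.5 CPM in the tumor. Its relative Tob1 fell by 0.77 in the tumor, and Cdkn2c, the CDK inhibitor p18, rose by 0.75. Macrophage and monocyte genes were lower in OX40plus Tregs beside these differences, 9 of 10 in each tissue, as were 5 of 6 CD8 T and NK cell genes in the tumor, the same direction as Btg1 and Tob1 and opposite to the mitosis genes. None of 7 melanocyte genes passed. The part of other cells in the list counts was not tested.

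**Figure D5:**
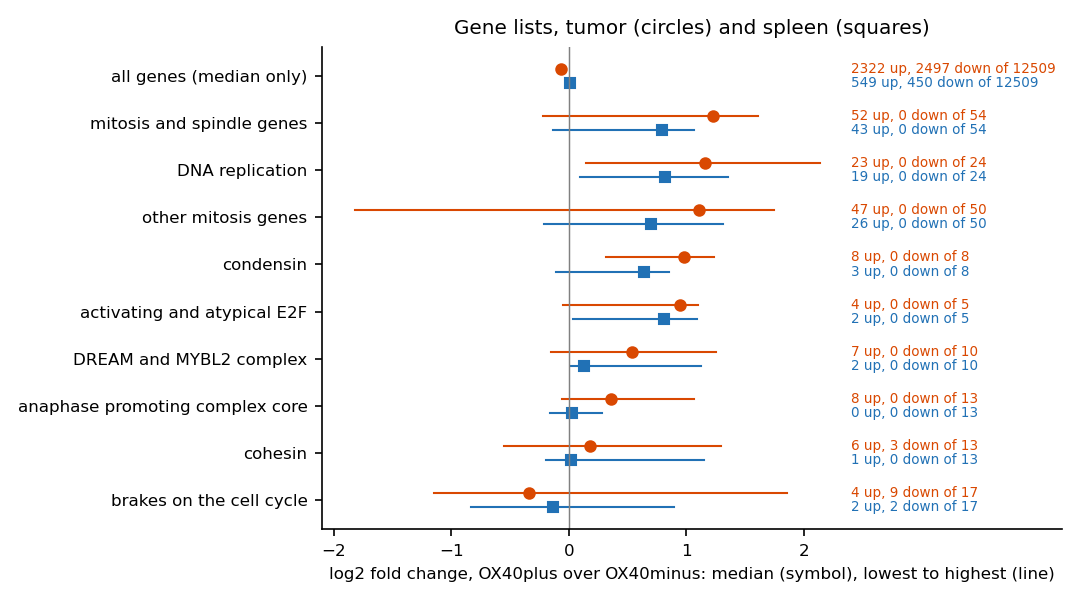
Median (symbols) and range (lines) of the log2 fold change of OX40plus over OX40minus Tregs in tumor (circles) and spleen (squares) for the 54 genes and 8 neighbouring lists, with the number of genes that passed in each direction at the right. The mitosis, replication and condensin lists have medians of 0.98 to 1.23 in the tumor. The list of the anaphase promoting complex core, which includes the activator Fzr1, has 0.36, cohesin 0.18 and the brakes -0.34.

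The promoters of these genes were read for letters that the choice of genes did not use. The cell cycle genes homology region (CHR) is a short element bound by the DREAM and MYBL2 complexes, often near a CCAAT box bound by NF-Y. RefSeq promoter sequences of GRCm38.p6, from 250 bases before to 50 bases after 1 annotated start per gene, matched 47 of the 54 genes. The letters TTTGAA or TTCGAA, on either strand, were found in 83% of the 47 (39 genes) and in 19.4% of all 27025 promoters of the table. Within the 50 bases after the start they were found in 48.9% of the 47 genes and 2.4% of all promoters, and in the 250 bases before it in 40.4% and 17.4%. CCAAT, on either strand, was found in the 250 bases of 78.7% of the 47 and 34.5% of all promoters, and 24 of the 47 held it more than once. The E2F letters TTTGGCGC, TTTCCCGC, TTTGCCGC and TTTCGCGC were found there in 6.38% of the 47 (only 3 genes) and 1.91% of all promoters. Among promoters of the genes in the expression data the share was 3.03%. CHR letters and CCAAT on the other strand can share 1 base, and a match is a description of letters, not a binding site.

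The following stretches are the 100 bases before the start that the promoter table uses for 5 genes, shown because they are among the 6 of highest mean level that passed in the tumor and have CHR letters in the 250 bases. That start can lie inside the whole annotated span of a gene, so that 10 bases of the Top2a stretch and 3 of the Bub3 stretch are within the span. For Mki67, the other of the 6, it is 71 bases, and the stretch is not printed. Capitals mark CHR letters (TTTGAA, or TTCAAA on the other strand) and CCAAT (or ATTGG on the other strand).
Top2a (chr11:99024190-99024289, minus strand): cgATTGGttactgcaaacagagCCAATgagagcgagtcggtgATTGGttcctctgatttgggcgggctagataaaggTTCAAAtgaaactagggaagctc
Bub3 (chr7:131560270-131560369, plus strand): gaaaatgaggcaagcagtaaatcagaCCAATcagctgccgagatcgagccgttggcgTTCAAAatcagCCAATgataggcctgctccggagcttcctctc
Ccnb2 (chr9:70421555-70421654, minus strand): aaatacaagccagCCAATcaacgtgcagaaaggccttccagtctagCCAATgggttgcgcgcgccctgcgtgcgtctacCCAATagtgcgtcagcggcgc
Ube2c (chr2:164769829-164769928, plus strand): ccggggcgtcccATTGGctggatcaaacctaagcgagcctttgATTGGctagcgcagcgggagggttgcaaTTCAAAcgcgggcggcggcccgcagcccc
Kif11 (chr19:37376282-37376381, plus strand): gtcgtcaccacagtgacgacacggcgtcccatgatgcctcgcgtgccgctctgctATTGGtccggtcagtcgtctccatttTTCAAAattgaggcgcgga
In Top2a, Bub3, Ube2c and Kif11 the CHR letters lie 19 to 43 bases before the start, with CCAAT letters before them and, in Bub3, also after them. In Ccnb2, whose upstream CHR letters lie 167 bases before the start, the stretch holds 3 CCAAT boxes.

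For genes whose CHR letters lie after that start, 30 bases around the match are shown for 7 of high mean level that passed in the tumor, with the match in capitals.
Cenpa (chr5:30666890-30666919, plus strand): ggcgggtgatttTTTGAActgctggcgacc
Racgap1 (chr15:99651634-99651663, minus strand): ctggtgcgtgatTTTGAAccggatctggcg
Ccnb2 (chr9:70421533-70421562, minus strand): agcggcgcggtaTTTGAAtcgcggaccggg
Bub1b (chr2:118598231-118598260, plus strand): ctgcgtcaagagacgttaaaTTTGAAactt
Plk1 (chr7:122159453-122159482, plus strand): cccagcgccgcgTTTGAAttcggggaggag
Cdca3 (chr6:124830194-124830223, plus strand): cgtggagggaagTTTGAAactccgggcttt
Kif23 (chr9:61946780-61946809, minus strand): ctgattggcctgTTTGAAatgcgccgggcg
The match begins 3 to 41 bases after the start of the promoter table in these 7 genes (in Cdca3 the printed site lies 664 bases inside the annotated span), and all 7 read TTTGAA on the strand of the gene. The presence of the letters was set beside the size of the OX40 difference, without a test. The 39 genes with CHR letters in all 300 bases had a median tumor log2 difference of 1.22, and the 8 without them, Birc5, Ccnb1, Cenpe, Cks2, Nek2, Nuf2, Nusap1 and Pttg1, had 1.33.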

How the data were processed

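RNA of 14 Treg samples was measured by RNA sequencing in 2 libraries each. Per the submitters' processing notes, the authors used bcl2fastq 2.19, kallisto, limma and the build mm10 (no label or header states how transcripts were summed to genes or scaled). The deposited table is named as counts but holds log2 values, log2 CPM with 0.5 added to each count, as read from the values themselves. Estimated counts were recovered from these values for depth, filters, the CPM levels, the comparison of the 2 libraries of a sample and some alternatives. The main tests used the log2 values themselves. Levels of genes with near-identical copies depend on how kallisto divides reads.

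The 2 libraries of a sample were averaged, and genes were tested that reached 0.382 CPM in at least 3 samples and 15 estimated counts in all. limma 3.58.1 (R 4.3.3) was fitted with a term for each group over all 14 samples and a trended prior, and p-values were adjusted over 12509 genes by Benjamini-Hochberg. The fit was tested on simulated data. All tests are two-sided. The mice are the replicates. The titles give the same mouse number to both gates of a tissue, which pairs them. Over all genes tested, deviations of same-numbered samples correlated between -0.16 and 0.11 over 19 pairs. Over 54 pairs of other numbers the correlations lay between -0.23 and 0.23. Both sets include pairs of tumor with spleen samples, so these values are not those of the gates within a tissue alone, nor of the 54 genes. Alternatives were other scalings, filters, pseudocounts and libraries, limma-voom, a replicate block, left-out samples and centring by transcript length, the last chosen after seeing the data.

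Members, gene lists and tests were chosen with earlier results of these data known. Genes named with values were the 2 of highest mean level and the one of smallest adjusted p in the tumor in each role, those that did not pass there, those that passed in the interaction, and the 3 highest and lowest differences per comparison; of other lists, the 3 of smallest adjusted p in the tumor. Further genes given by their differences were added after their values were seen. The level of 1 marker gene and the sequence of 1 promoter site are not reported here.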

Additional observations from a re-analysis of the deposited data

Results flagged for a closer look

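In 56 groups of 4 tumor samples, 28 genes in each gate, the highest and lowest sample were compared with the rest, and chance marks about 1 in 20 such groups. A single sample stood apart in 3 of them, all from mouse 2. Tpx2 was at 212 CPM in the tumor OX40plus sample of mouse 2, above the other 3 samples. Kif22 was at 234 CPM in the same sample, again above the other 3. Top2a was at 291 CPM in the tumor OX40minus sample of mouse 2, above the other 3. The median of the 54 genes, as log2 CPM minus each gene's mean, was 0.32 in that tumor OX40minus sample and between -0.04 and -0.01 in the other 3.

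The OX40 difference was larger in the tumor than in the spleen by the interaction test for Ube2c (0.89 on the log2 scale, adjusted p = 0.0123, limma) and Bub3 (0.49, adjusted p = 0.0257, limma). They are 2 of the 54 genes, a count near the share of all genes tested that passed in that direction, 4.53%. Both were higher in the OX40plus sample of 4 of 4 tumor mice, as were 52 of the 54 genes and 22.3% of all genes. Ube2c passed in every alternative and every fit without 1 sample. Bub3 did not pass with a term for each mouse within a tissue (adjusted p = 0.0725) nor in 5 of the 14 fits without 1 sample (adjusted p = 0.052 to 0.0754).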

How the results depend on the processing

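The tumor count of 52 genes stayed between 52 and 53 in 12 alternatives and at 52 in 14 fits without 1 sample. The 53 came with centring by length, where 52 genes were higher and 1, Pttg1, was lower. The spleen count of 43 lay between 35 and 47 in the alternatives and between 24 (without the spleen OX40plus sample of mouse 2) and 46 without 1 sample. The interaction count of 2 was 4 with median-of-ratios size factors, 6 with a replicate block by mouse number, 4 with a replicate block within tissue and 11 with values centred by transcript length, and ranged from 1 to 10 without 1 sample. The replicate block within tissue gave 44 genes in the spleen and the same 52 in the tumor. For these other settings the share of all genes that passed is not given here. Centring by length turned the direction of Mki67 between tissues, to 0.77 in OX40plus and 0.42 in OX40minus cells, and of Top2a in tumor OX40minus against spleen OX40plus cells, to 0.56; it was chosen after seeing the data, and the cause was not tested. The median log2 differences kept their sign in all these settings, at 1.18 to 1.31 in the tumor and 0.63 to 0.93 in the spleen. The 28 genes named by the rule above were chosen partly by their adjusted p in the tumor. Of their alternative values, 335 of 336 in the tumor and 314 of 336 in the spleen kept their side of the threshold. Without 1 sample, 392 of 392 values in the tumor and 349 of 392 in the spleen did, with 38 spleen calls lost and 5 gained. With all 300 bases of the promoter table, in place of the 250 before the start, the share of promoters with CHR letters was 83% in place of 40.4%, and with both CHR and CCAAT letters 72.3% in place of 36.2%. The number of mice limits the precision: spleen calls near the threshold rest on 3 animals.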
